A study of Mus musculus with 2 samples.

Results

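The clustered histone genes are the protein-coding genes whose symbols start with Hist1h, Hist2h, Hist3h or Hist4h in the GENCODE annotation of mm10, and 67 of the 21853 protein-coding genes on the assembled chromosomes met that rule. They comprised 6 genes for H1, 18 for H2A, 18 for H2B, 12 for H3 and 13 for H4. Open chromatin had been mapped by ATAC-seq, in which the Tn5 transposase inserts sequencing adapters into accessible DNA, in hematopoietic stem cells. The mice were C57BL/6J males of 5 to 6 weeks. There was 1 group with no second condition, and it held 2 libraries, biological replicates 1 and 2, each from 50000 primary cells. The libraries carry separate biosample labels and a common donor label, so the labels do not show whether separate animals were used. For each gene the promoter was taken as 1000 bp either side of any transcription start site (TSS), and a gene was counted as having a promoter peak when a peak interval met a promoter.

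Histones H2A, H2B, H3 and H4 form the protein core of the nucleosome, around which DNA is wrapped, and H1 binds the DNA between nucleosomes. The genes in the clusters are replication-dependent: they are copied into RNA mostly while DNA is being replicated, they lack introns as a rule, and their messages end in a conserved stem-loop instead of a poly(A) tail. H2A and H2B genes often lie head to head, so that a short stretch of DNA serves as the promoter of both. Most stem cells of adult bone marrow rest outside the cell cycle, but cell cycle phase was not measured in these files.

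Most of the clustered histone genes had an accessible promoter. In the stricter peak lists, thresholded by the irreproducible discovery rate (IDR), 52 of the 67 genes (77.6%) had a promoter peak in both libraries, against 8978 of the 21786 other protein-coding genes (41.2%) and 41.3% of all protein-coding genes. In the less strict, pseudoreplicated lists the counts were 60 of 67 (89.6%) for histone genes and 12605 of 21786 (57.9%) for other genes, with 58.0% of all protein-coding genes called. The peaks were weaker than those of other promoters: per gene, the median signal value of the called histone promoters was 8.54 in replicate 1 and 9.07 in replicate 2, against 10.3 and 10.9 for the other called genes. Within the lists these medians stood at percentiles 49.5 and 41.2 of all peaks for histone promoters, and at 72.1 and 66.6 for other promoters. With each peak that met a histone promoter counted once, the medians were lower, at 7.42 and 8.58 and percentiles 30.3 and 33.0, against medians of 8.57 and 9.64 over all peaks. Some histone genes were called only through a peak nearer to a neighbour's start. With each thresholded peak credited to the nearest start only, 37 histone genes (55.2%) and 7922 other genes (36.4%) were called in both libraries. When only the 50% strongest peaks were kept, 21 histone genes (31.3%) and 5572 other genes (25.6%) were called in both libraries. The signal value is the strength that the authors' peak caller gave each peak, and its scaling between lists is not given, so a difference in level between the libraries cannot be read from it. No count of reads was used, so depth is unknown and a missing peak means not called at this threshold. A peak over a whole population cannot tell fewer open cells from less accessibility per cell.

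**Figure D1:**
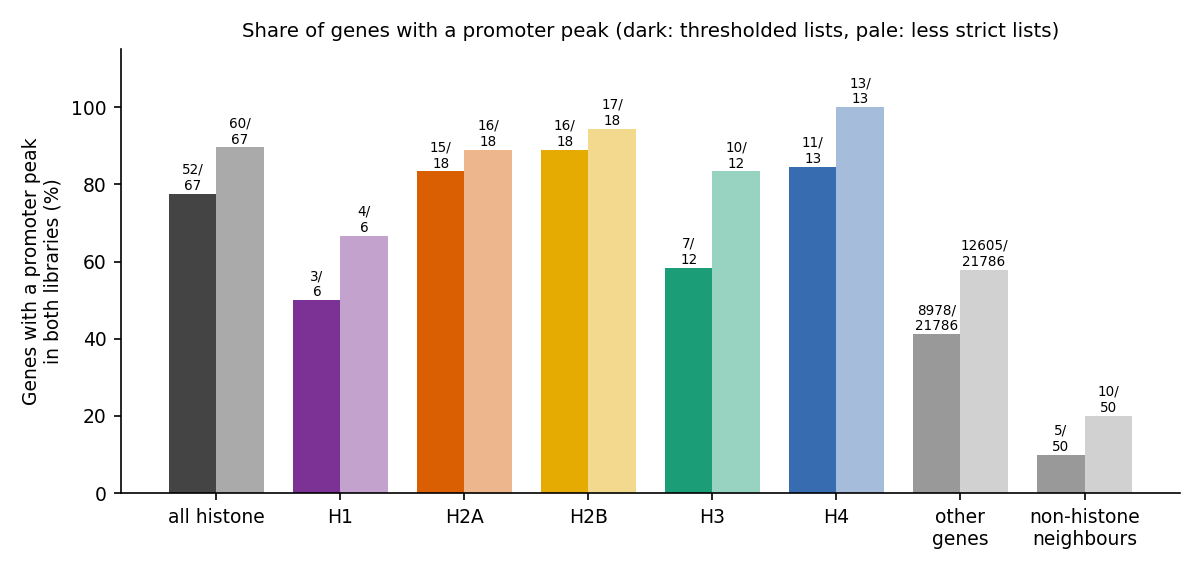
Percentage of genes (vertical axis) with a promoter peak in both libraries, for all clustered histone genes, each histone class, all other protein-coding genes and the non-histone genes inside the clusters (horizontal axis); dark bars are the thresholded lists, pale bars the less strict lists, and the numbers are genes called over genes in the group. H2A, H2B and H4 stood at 83.3% or more in the thresholded lists, while H3 stood at 58.3% and H1 at 50%.

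The promoter sequences shown next are those whose peaks carry the results below, each from a different arrangement: a head-to-head H2A and H2B pair with the strongest shared peak, a lone H2B gene with the strongest peak that met a single gene, and the strongest called gene of H4, H1 and H3 whose upstream sequence held no annotated exon. They come from RefSeq (GRCm38.p6, the mm10 assembly) and run 5′ to 3′ on the strand named. The first spans the bases between the RefSeq starts of both genes, which lie closer together than the GENCODE starts, and each of the others is the 200 bases before the RefSeq start. Capitals mark, on either strand, CCAAT, the TATA box string TATAAA, the octamer ATTTGCAT, the H1 box AAACACA and the H4 element core GGTCCG; none of the 5 strings contains another.

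Hist1h2ah to Hist1h2bk, chr13:22035644-22035820, plus strand: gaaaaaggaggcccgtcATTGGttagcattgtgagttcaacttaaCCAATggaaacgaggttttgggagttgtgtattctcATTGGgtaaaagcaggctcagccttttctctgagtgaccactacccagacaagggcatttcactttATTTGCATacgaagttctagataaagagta
Hist1h2bm, chr13:21721844-21722043, plus strand: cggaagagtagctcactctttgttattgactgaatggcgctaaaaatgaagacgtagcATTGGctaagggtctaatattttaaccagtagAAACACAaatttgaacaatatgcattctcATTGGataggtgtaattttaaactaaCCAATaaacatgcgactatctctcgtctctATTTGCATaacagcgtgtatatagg
Hist1h4c, chr13:23698459-23698658, minus strand: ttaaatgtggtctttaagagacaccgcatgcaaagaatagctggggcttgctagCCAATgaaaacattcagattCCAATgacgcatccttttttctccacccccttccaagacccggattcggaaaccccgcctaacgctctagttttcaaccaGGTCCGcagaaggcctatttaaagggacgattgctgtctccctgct
Hist1h1c, chr13:23738607-23738806, plus strand: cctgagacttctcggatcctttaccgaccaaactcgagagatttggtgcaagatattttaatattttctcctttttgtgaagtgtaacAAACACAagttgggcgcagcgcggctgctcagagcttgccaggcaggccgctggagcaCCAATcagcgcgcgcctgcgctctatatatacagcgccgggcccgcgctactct
Hist1h3e, chr13:23562386-23562585, minus strand: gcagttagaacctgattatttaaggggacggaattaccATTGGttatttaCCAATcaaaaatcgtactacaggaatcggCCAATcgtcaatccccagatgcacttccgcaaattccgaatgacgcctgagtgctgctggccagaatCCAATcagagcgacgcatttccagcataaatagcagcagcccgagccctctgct

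CCAAT, the letters bound by the factor NF-Y, was common to all classes except H4. In windows from 250 bp upstream to 50 bp downstream of a RefSeq start, which 62 of the 67 genes had, it was present in 6 of 6 H1, 18 of 18 H2A, 16 of 16 H2B and 10 of 10 H3 promoters but in 3 of 12 H4 promoters, against 37.3% of 32788 other promoters of the same length. The H4 promoters instead held GGTCCG, the core of an element known from H4 genes, in 11 of 12 cases, against 8.23% of other promoters, and the 10 sites upstream of the start had a median position of -46 (bp from the start, negative upstream). AAACACA stood in 5 of 6 H1 promoters, at positions -122 to -112, against 7.17% of other promoters. The octamer was limited to H2A (7 of 18) and H2B (6 of 16) promoters among the histone genes, against 1.70% of other promoters, and TATAAA was found in 35 of 62 histone promoters against 13.5% of others. Paired H2A and H2B genes share the same bases, so their counts are not separate observations. These are matches of letters and do not show binding. Hist2h2be, Hist2h4, Hist1h3f, Hist1h2bc and Hist1h3a were left out of these counts.

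H2A and H2B genes had the strongest promoter peaks of the family. Of the H2A genes 15 of 18, and of the H2B genes 16 of 18, had a thresholded peak in both libraries, with median signal values of 9.35 and 9.98 for H2A and 9.69 and 10.3 for H2B in replicates 1 and 2. Many of them were called through a shared peak: with each peak credited to the nearest start only, 9 H2A and 10 H2B genes were left, beside 11 of the 13 H4 genes. The strongest histone peak of replicate 2 lay between Hist1h2ah and Hist1h2bk, with signal values of 12.4 in replicate 1 and 14.5 in replicate 2, and its summits fell inside the first sequence printed above. Hist1h2bm, an H2B gene with no head-to-head partner, had the strongest peak of replicate 1, at 12.9 there and 13.7 in replicate 2. Both stood at percentile 88.0 or above in either list. The pair Hist1h2ac and Hist1h2bc had 11.6 and 12.2, and Hist1h2bl and Hist1h2ai with 11.8 and 11.0. Hist1h2bh shared a peak of 12.5 in either library with the H3 gene Hist1h3f, whose start lay 660 bp away.

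**Figure D2:**
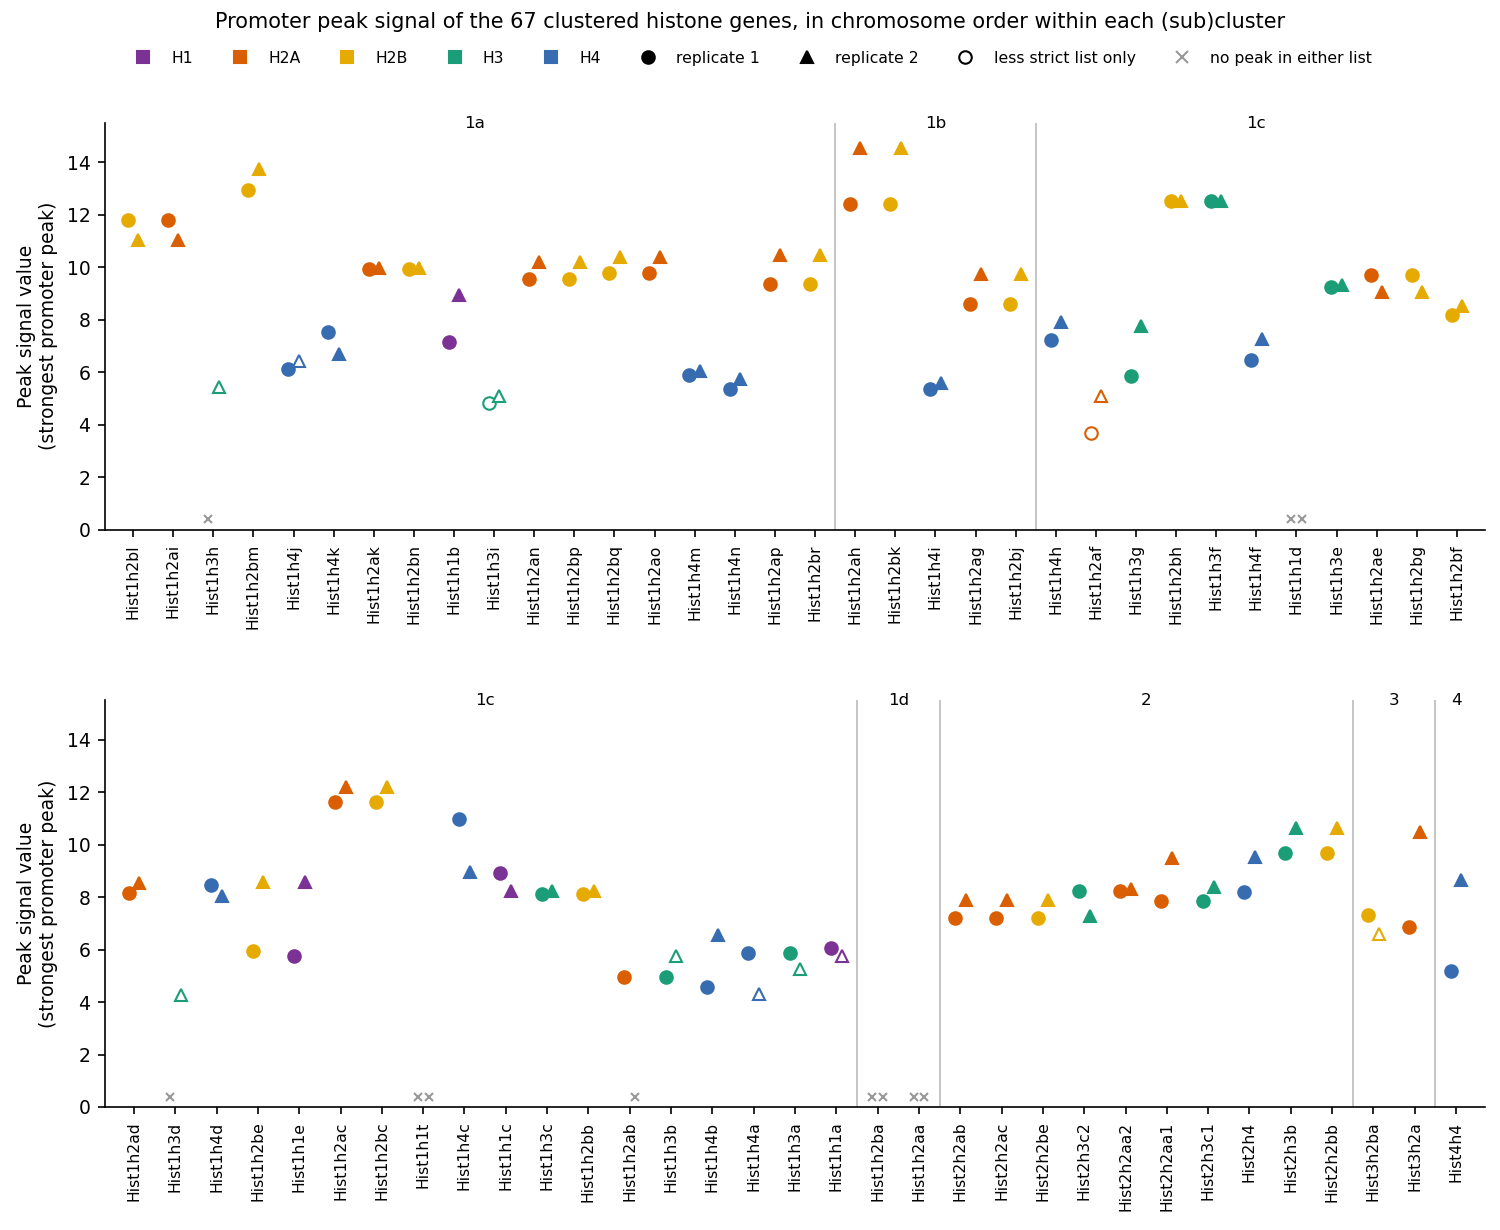
Signal value of the strongest promoter peak (vertical axis, no unit) of each of the 67 genes, in chromosome order within each block of cluster 1 (1a to 1d) and clusters 2 to 4 (horizontal axis); colours are classes, circles replicate 1, triangles replicate 2, open symbols peaks of the less strict list only, and crosses no peak in either list. The paired H2A and H2B genes sit high with equal values where they share a peak, most H4 genes sit low, and the testis pair Hist1h2ba and Hist1h2aa has crosses only.

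The peaks of head-to-head pairs lay between the genes. Taking opposite-strand histone genes whose starts lay at most 1000 bp apart gave 13 pairs, 12 of H2A with H2B and 1 of H2B with H3. Of the 13 pairs 12 shared a peak in both thresholded lists. Promoters of 1000 bp either side of such close starts overlap, so this sharing is largely set by the definition of a pair. In all 12 pairs with a shared peak the summit of the strongest one lay between both starts in both libraries. The starts of the H2A and H2B pairs lay 176 to 306 bp apart, and in 10 of their 11 shared peaks the interval covered both starts in each library. The exception was Hist1h2bl and Hist1h2ai, where the peak began 6 bp upstream of the GENCODE start of Hist1h2bl and covered that of Hist1h2ai. The RefSeq start of Hist1h2bl lies further upstream, and the peak covered the RefSeq starts of both genes in each library. These 11 peaks had median signal values of 9.71 in replicate 1 and 10.2 in replicate 2, ranging from 7.21 to 12.4 and from 7.91 to 14.5. Of the 24 H2A and H2B genes in such pairs 22 had a thresholded peak in both libraries, against 9 of the 12 H2A and H2B genes outside them. In the less strict lists the counts were 22 of 24 and 11 of 12, so the contrast was not seen there. The 1 pair without a shared peak was the testis pair Hist1h2ba and Hist1h2aa.

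**Figure D3:**
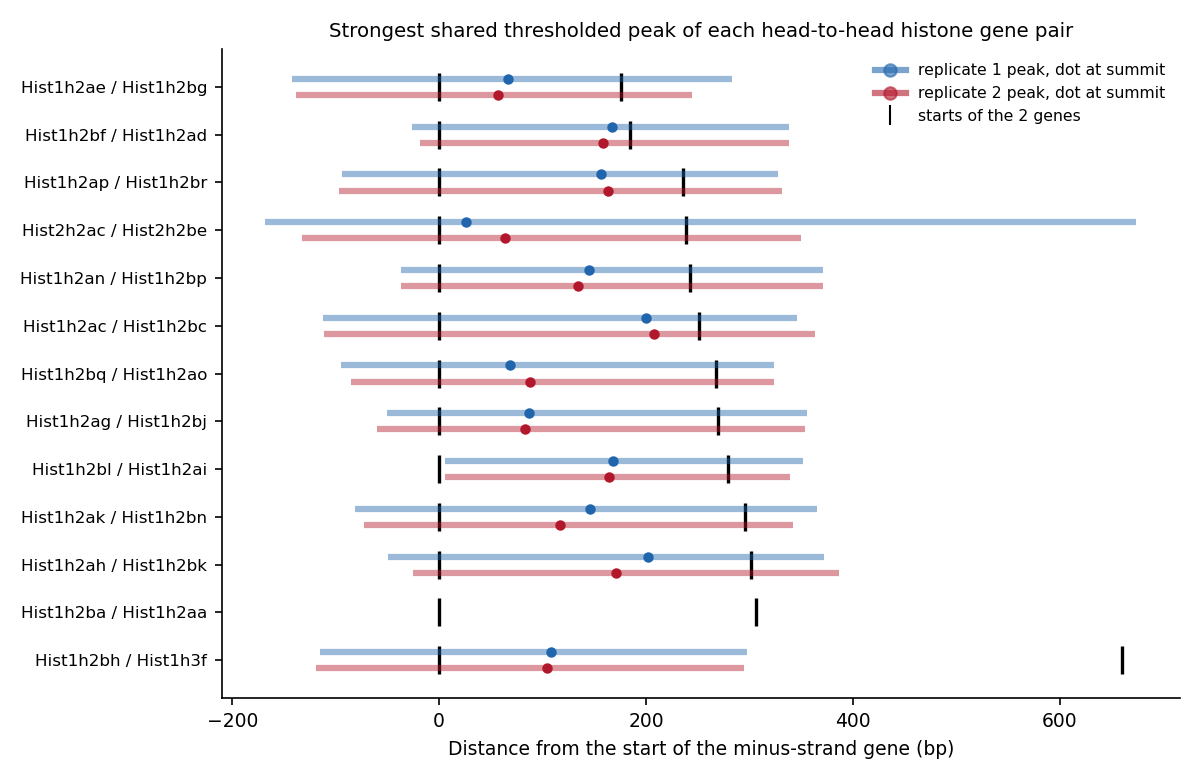
Strongest thresholded peak shared by each of the 13 head-to-head histone gene pairs (rows), with the distance in bp from the start of the minus-strand gene on the horizontal axis; black ticks are the starts of both genes, bars the peak intervals and dots the summits, in blue for replicate 1 and red for replicate 2. The summits of the 12 pairs with a peak lie between the ticks, and Hist1h2ba with Hist1h2aa has no bar.

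H4 genes had weaker peaks, most of which met no other histone gene. Of the 13 H4 genes 11 had a thresholded peak in both libraries, and all 13 had a less strict one. Their median signal values were 6.48 and 7.28, at percentiles 14.6 and 13.4, the lowest of the classes in both libraries. Hist1h4c had the highest percentiles among H4 genes, with 11.0 in replicate 1 and 8.98 in replicate 2, and was followed by Hist2h4 with 8.21 and 9.54 and Hist1h4d with 8.48 and 8.05. Hist1h4b was weakest in replicate 1 with 4.58, against 6.55 in replicate 2, and Hist1h4i weakest in replicate 2 with 5.58, against 5.36 in replicate 1. The strongest peak of Hist1h4h, with 7.23 and 7.91, had its summit 697 and 696 bp downstream of the start, beyond the 3′ end of the gene. In the other H4 genes of cluster 1 called in both libraries the summit of the strongest peak lay upstream. A weaker thresholded peak covered the start of Hist1h4h in both libraries, with 5.17 and 5.81. The 14 thresholded peaks over a single H4 gene in replicate 1 ranged from 4.58 to 11.0 and the 12 in replicate 2 from 5.58 to 9.54, so they overlapped the range of the H2A and H2B pair peaks. The 13 H4 genes encode 1 and the same protein in 12 different coding sequences, with a length of 103 amino acids.

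H3 genes were called less often than the other core histone genes. Of 12 H3 genes 7 had a thresholded peak in both libraries and 10 a less strict one, with medians of 8.23 and 8.39 in the thresholded lists. The highest percentiles belonged to Hist1h3f (12.5 in either library), Hist2h3b (9.68 and 10.6) and Hist1h3e (9.25 and 9.31). The strongest peaks of Hist1h3f and Hist2h3b lay nearer to the start of an H2B neighbour than to their own. The summits were at -552 and -556 from Hist1h3f but at -108 and -104 from Hist1h2bh, and at 911 and 924 from Hist2h3b but at -187 and -174 from Hist2h2bb. The strongest peak of Hist1h3c, with 8.13 and 8.22, likewise had its summit at -983 and -970, near the start of the H2B gene Hist1h2bb. A weaker peak covered the start of Hist1h3c, of 4.67 in replicate 1 and, in the less strict list only, 5.84 in replicate 2. Hist1h3f also met a weaker thresholded peak in both libraries, of 7.59 and 8. The strongest peak had its summit within 200 bp upstream of the gene's own start in both libraries for Hist1h3e, Hist1h3g (5.87 and 7.74) and Hist2h3c2 (8.23 and 7.27). The strongest peak of Hist2h3c1 lay at -1226, near Hist2h2aa1, in replicate 1 and at -128 in replicate 2. A weaker thresholded peak of 7.09 also met Hist2h3c1 in replicate 1, with its summit 12 bp from that of the replicate 2 peak. The 12 H3 genes encode 2 proteins, and 8 of them encode the same one.

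H1 genes were called least often, and the strongest peaks of the called genes were not centred on the start. Of 6 H1 genes 3 had a thresholded peak in both libraries. Hist1h1c had signal values of 8.92 and 8.25, Hist1h1b 7.14 and 8.96, and Hist1h1e 5.77 and 8.58. In all 3 the summit of the strongest peak lay downstream of the start in both libraries. It lay at 918 and 916 bp for Hist1h1c, 1156 and 1141 bp for Hist1h1b and 291 and 870 bp for Hist1h1e. The strongest peak of Hist1h1b lay wholly beyond the 3′ end of the gene in both libraries. In replicate 2 that peak was the only thresholded one that met the promoter of Hist1h1b. A weaker peak covered the start of Hist1h1b, of 4.57 in replicate 1 and, in the less strict list only, 3.40 in replicate 2. The peak of Hist1h1c was the widest of all histone peaks, 1470 bp in replicate 1 and 1500 bp in replicate 2, with 4 listed summits, and it covered the start. For Hist1h1e the thresholded peaks of the libraries did not overlap each other. In the less strict lists Hist1h1e had overlapping peaks over its start, of 5.77 and 5.41. The peak of 8.58 in replicate 2 was also the strongest for the H2B gene Hist1h2be, which had 5.96 in replicate 1. Hist1h1e and Hist1h2be were the genes lost when the thresholded peaks of both libraries had to overlap at GENCODE starts, which left 50 genes. Hist1h1a had a thresholded peak in replicate 1 only (6.06, summit at -26) and a less strict one of 5.74 in replicate 2. Hist1h1t, the linker histone of the testis, had no peak in any of the 4 lists. Hist1h1d had none either, but its GENCODE start lies 1770 bp upstream of its RefSeq start. With the RefSeq start it gained less strict peaks of 5.23 and 5.92, and a thresholded peak in replicate 1 only.

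**Figure D4:**
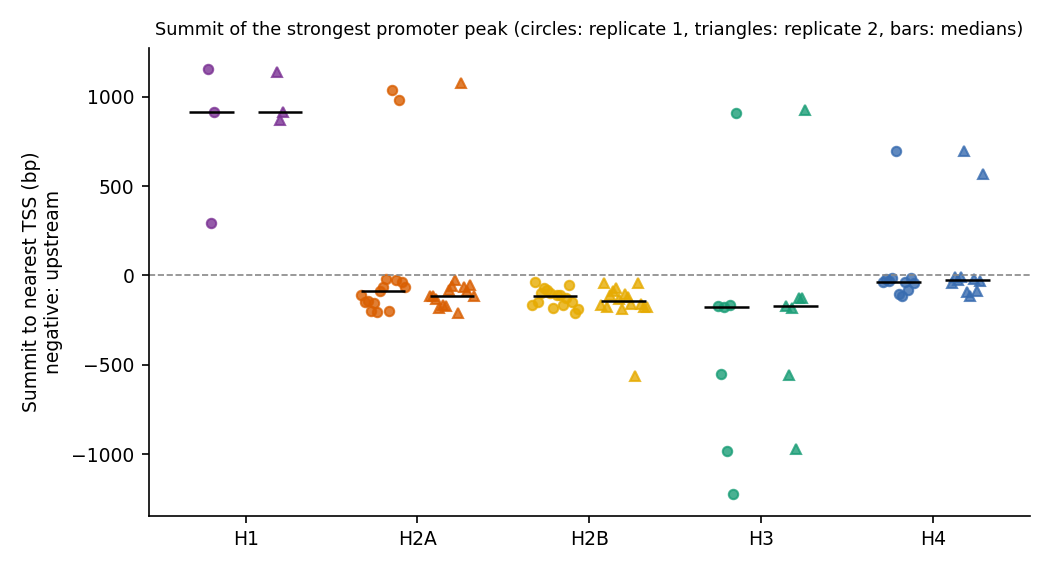
Distance in bp from the nearest annotated start to the summit of the strongest promoter peak (vertical axis, negative values upstream) for the 52 genes with a thresholded peak in both libraries, by class (horizontal axis); circles are replicate 1, triangles replicate 2 and bars the medians. Most H2A, H2B and H4 summits sit at or just upstream of the start, and the 3 H1 summits all sit downstream.

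Across the 52 called genes the summit lay upstream of the nearest start in 45 (86.5%) in either library, and within 200 bp upstream in 40 and 41. Among the 8978 other called genes the summit lay upstream in 76.4% in replicate 1 and 75.7% in replicate 2. The median position was -99 and -106.5 for histone genes and -48 for other genes in both libraries. Positions were taken from the nearest of a gene's GENCODE starts, so genes with more starts tend to shorter distances. The number of starts was not matched between histone and other genes, which limits both comparisons. By class the medians were -116.5 and -144.5 for H2B, -87 and -115 for H2A, -37 and -27 for H4, -175 and -172 for H3, and 918 and 916 for H1. In 16 of 16 H2B genes the summits lay upstream. Measured from RefSeq starts, which 48 of the 52 genes had, the medians over all classes were -73 and -80. Several RefSeq starts, such as those of Hist1h2bl and Hist1h2ak, lie upstream of the GENCODE start. No RefSeq medians were taken for other genes.

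On chromosome 3, all 10 genes of cluster 2, in 50.3 kb at chr3:96219865-96270132 (mm10), had a thresholded peak in both libraries. They include the near-identical copies Hist2h2aa1 with Hist2h2aa2 and Hist2h3c1 with Hist2h3c2, and without peaks of mostly repeated sequence 6 of the 10 were called, against 34 of the 54 genes of cluster 1. Hist2h3b and Hist2h2bb shared the strongest, at 9.68 and 10.6, and Hist2h2ab, Hist2h2ac and Hist2h2be shared the only peak that met 3 genes, at 7.21 and 7.91. That summit lay 1041 and 1079 bp downstream of the start of Hist2h2ab and close to the starts of the other genes. A weaker peak covered the start of Hist2h2ab, of 6.19 in replicate 2 and, in the less strict list only, 4.57 in replicate 1. Hist2h2aa2 had 8.23 and 8.32, Hist2h2aa1 7.84 and 9.48, and Hist2h3c1 7.84 and 8.39. The replicate 1 value of Hist2h2aa2 belongs to the peak over Hist2h3c2. The peak over the start of Hist2h2aa2 had 8.18 in replicate 1 and 8.32 in replicate 2. Over all 10 genes the values ran from 7.21 to 9.68 in replicate 1 and from 7.27 to 10.6 in replicate 2. In cluster 3 on chromosome 11, Hist3h2a had 6.88 and 10.5, and Hist3h2ba had 7.32 in replicate 1 and only a less strict peak of 6.61 in replicate 2. The peak over Hist3h2a also met the promoter of Trim17, a neighbouring ubiquitin ligase gene. Hist4h4 on chromosome 6 had 5.19 and 8.66, in intervals of 1055 and 989 bp whose strongest summit lay at -43 in replicate 1 and at 569 in replicate 2.

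Cluster 1 on chromosome 13 held 54 genes, of which 40 had a thresholded peak in both libraries. They lie in blocks more than 100 kb apart. The first block (1a, chr13:21715763-21837530) had 15 of 18 genes called, the second (1b, chr13:22035164-22043676) 5 of 5, the third (1c, chr13:23531050-23764406) 20 of 29 and the last (1d, chr13:23933773-23934851) 0 of 2. The last block consists of Hist1h2ba and Hist1h2aa, the testis-specific H2B and H2A genes, which had no peak in any of the 4 lists. Of 50 non-histone genes with a start between the first and last histone gene of a cluster, 36 are Vmn1r genes, which encode vomeronasal receptors, and none of these had a less strict peak in both libraries. The neighbours with a thresholded peak in both libraries numbered 5 of 50 (10%): Zfp322a (15.4 and 15.1), Btn2a2 (15.0 and 16.9), Abt1 (10.8 and 12.0), Zfp184 (8.14 and 9.33) and Trim17, the gene that meets the peak over Hist3h2a. In the less strict lists 10 of the 50 neighbours (20%) were called. Of the 50 only Trim17 and Hfe lie inside the span of a cluster or block, and the others lie in the gaps between the blocks. Away from every GENCODE protein-coding start, the spans of the blocks held 6 thresholded peaks in replicate 1 and 4 in replicate 2. All lay in blocks 1a and 1c. They include the peak counted above for Hist1h1b, whose summit lies over 1000 bp from the start, and, in replicate 1, the peak at the RefSeq start of Hist1h1d. The strongest, of 10.7 and 9.98, lay 6927 and 6902 bp from the nearest start, near Hist1h2bq. A peak of 8.01 and 7.59 lay 4457 and 4449 bp from the nearest GENCODE start, near Hist1h4d. With RefSeq starts, the peak of 8.01 was the strongest promoter peak of Hist1h2be in replicate 1.

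The libraries differed over the weaker genes. Of the 67 genes 59 had a thresholded peak in replicate 1 and 52 in replicate 2. The 7 genes called in replicate 1 only (10.4%, against 4.64% of all protein-coding genes) were Hist1h1a, Hist1h2ab, Hist1h3a, Hist1h3b, Hist1h4a, Hist1h4j and Hist3h2ba, and none was called in replicate 2 only, against 2.82% of all protein-coding genes. Their replicate 1 signal values were all below the median of the called histone genes: 4.97 for the peak shared by Hist1h2ab and Hist1h3b, 5.87 for that of Hist1h3a and Hist1h4a, 6.06 for Hist1h1a, 6.11 for Hist1h4j and 7.32 for Hist3h2ba. In the less strict list of replicate 2, 6 of the 7 had a peak, of 5.75 for Hist1h3b, 5.25 for Hist1h3a, 4.32 for Hist1h4a and 6.43 for Hist1h4j besides those given above, and Hist1h2ab had none. Its own replicate 1 peak of 4.97 had its summit 1135 bp downstream, at -6 from the start of Hist1h3b. The replicate 2 values given for Hist1h3a and Hist1h4j come from other sites than their replicate 1 peaks. The less strict replicate 2 peaks that overlap those replicate 1 peaks had 4.32 for Hist1h3a and 6.07 for Hist1h4j. The 8 genes without a thresholded peak in either library were Hist1h3h, Hist1h3d, Hist1h3i, Hist1h2af, Hist1h1d, Hist1h1t, Hist1h2ba and Hist1h2aa. Hist1h3i (4.83 and 5.11) and Hist1h2af (3.70 and 5.11) had less strict peaks in both libraries, Hist1h3h (5.45) and Hist1h3d (4.27) in replicate 2 only, and the other 4 in neither.

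Because neighbours share peaks, the number of peaks was smaller than the number of genes. Counted once each, the histone promoters were met by 48 distinct thresholded peaks in replicate 1 and 39 in replicate 2. Of these, 21 and 18 met 2 histone genes and 1 in each library met 3, so that 39 and 35 genes shared a peak. In each library 37 of the distinct peaks overlapped a peak of the other. Across the 37 matched peaks Pearson's r was 0.84 on the log2 scale, and Spearman's rho was 0.797. The points are peaks of the same pair of libraries and share their depth, so r is given as a description. The median gap between the summits of matched peaks was 10 bp, and in 35 of 37 it was at most 50 bp. The widest gap, 612 bp, was at Hist4h4. Signal values were higher in replicate 2 for 30 of the 37 matched peaks, but their percentile was higher there for only 11, and since the scaling between the lists is not given no difference in accessibility is read from this.

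**Figure D5:**
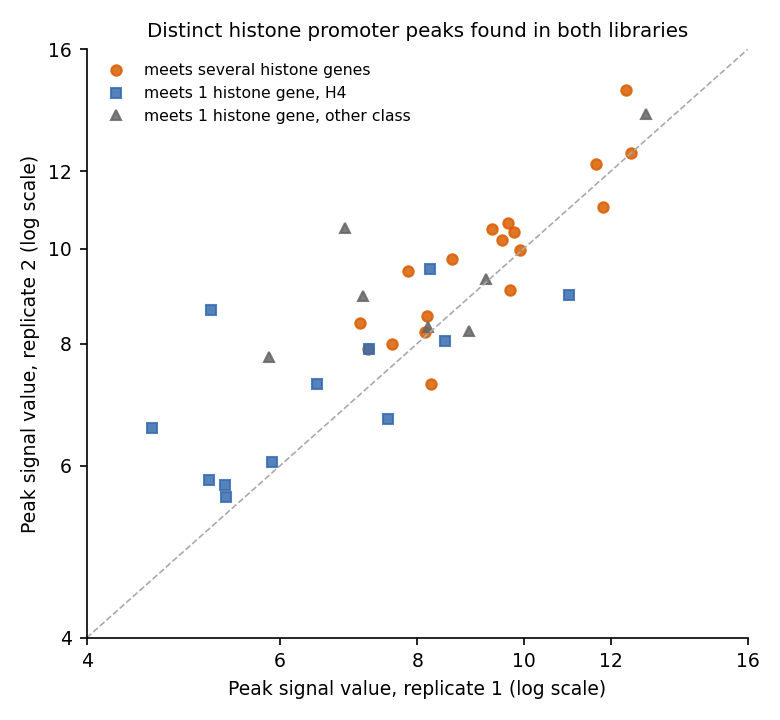
Signal value in replicate 1 (horizontal axis) against replicate 2 (vertical axis), both on log scales with no unit, for the 37 distinct histone promoter peaks found in both thresholded lists; the dashed line marks equal values, and colours and shapes show peaks that met several histone genes, a single H4 gene or a single gene of another class. The points run along the line, with r = 0.84 on the log2 scale, and 30 of 37 lie above it.

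Near-identical copies limit what can be said of single genes. In 10 of the 67 genes more than 50% of the 31-base words of the promoter window occur elsewhere in the genome: Hist1h2bq, Hist1h2ao, Hist1h2ap, Hist1h2br, Hist1h4m, Hist1h4n, Hist2h3c1, Hist2h3c2, Hist2h2aa1 and Hist2h2aa2. All 10 had a thresholded peak in both libraries. The 200 bases upstream of Hist1h2bq and of Hist1h2br are the same at every position, and every 31-base word of both promoter windows is repeated. Their peaks had near-equal values, 9.79 and 10.4 for Hist1h2bq with Hist1h2ao, and 9.35 and 10.5 for Hist1h2ap with Hist1h2br. Reads that lie wholly within such sequence cannot be assigned to 1 copy, and how the pipeline placed them is not given in the sources used. Without these 10 genes, 42 of 57 (73.7%) had a thresholded peak in both libraries.

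Histone promoters are rich in CpG, a property that goes with accessible promoters in general. The CpG ratio, observed over expected, was taken in 500 bp either side of the most 5′ start, a narrower window than that of the calls. Its median was 0.879 for histone genes and 0.560 for other genes. Of the 67 histone genes 59 fell in the top CpG tertile of all protein-coding genes. Within that tertile 50 of 59 histone genes (84.7%) and 67.3% of the other genes were called. In the middle tertile 2 of 7 histone genes (28.6%) were called and 47.0% of the other genes, and in the less strict lists 4 of 7 (57.1%) and 67.8%. These 7 include the testis genes Hist1h1t, Hist1h2ba and Hist1h2aa, so they are too few to read a share from. The single histone gene in the lowest tertile was not called, against 9.60% of the other genes there.

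Most of the listed histone genes and histone-related genes outside the clusters were called. Of 11 genes for histone variants listed as replication-independent 8 had a thresholded peak in both libraries (72.7%, against 41.3% of all protein-coding genes). The strongest were H2afv (15.4 and 16.4), an H2A.Z gene, H2afx (11.5 and 13.5), whose protein is phosphorylated at DNA breaks, and Cenpa (12.4 and 12.6), the centromeric H3 variant. H1f0, H2afy and H2afy2 were not called in the thresholded lists; H1f0 and H2afy2 had less strict peaks in both libraries. Of 17 genes for histone gene transcription and 3′ end processing 15 were called (88.2%), led by Hinfp (15.0 and 16.0), which encodes a factor that binds H4 gene promoters, Lsm10 (13.8 and 14.2), a subunit of the U7 particle, and Casp8ap2 (14.0 and 13.7), whose product FLASH acts in histone RNA processing. Npat, the coactivator of the clusters, had 12.7 and 11.8. Eri1 and Gon4l had a thresholded peak in replicate 1 only, and all 17 genes had less strict peaks in both libraries. Of 22 histone chaperone genes 21 were called (95.5%), led by Tonsl (15.6 and 15.0), Anp32e (13.5 and 17.5) and Nap1l1 (14.3 and 14.9). Chaf1a, the large subunit of the replication-coupled chaperone CAF-1, had a thresholded peak in replicate 2 only (6.18). All 22 chaperone genes had less strict peaks in both libraries.

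The stem cell label was checked against marker promoters. Of 7 stem cell markers Hlf, Meis1 and Kit had a thresholded peak in both libraries (42.9%, against 41.3% of all protein-coding genes, so this count does not set them apart), and 6 of 7 had a less strict one, where 58.0% of all protein-coding genes did. Slamf1 had one in replicate 2 only. None of 4 erythroid, 4 granulocyte and monocyte and 3 T cell markers had a thresholded peak in both libraries, and the B cell genes Cd79a and Cd79b had no peak in any of the 4 lists. Klf1 had one of 8.84 in replicate 1 only, and the granulocyte genes Csf3r and Mpo had less strict peaks in both libraries. The part of other cell types in the histone peaks was not tested.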

How the data were processed

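ATAC-seq peak lists of 2 libraries of hematopoietic stem cells were used, in 1 group. Sequencing instruments are labelled for replicate 1 only, where more than 1 is named. There was no second group, so no comparison between conditions and no test was made. The members and gene lists were chosen with earlier results of these data known. Per the deposited file notes, the files are peak lists on mm10, each made from that library alone: for each library an IDR-thresholded and a less strict pseudoreplicated list, made by the authors' pipeline. The sources used here do not give the aligner, the peak caller or the treatment of reads that match several places. Each deposited peak carries the authors' signal value (column of enrichment strength, with no unit), and read depth is not part of these lists, so no interval or floor could be given. Intervals listed once per summit were taken once, with their strongest summit.

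Starts came from protein-coding transcripts of GENCODE M21. Promoters reached 1000 bp to each side of a start, and a peak met one with an overlap of at least 1 bp. The strongest peak stood for a gene, and percentiles are ranks within a list. Head-to-head pairs were opposite-strand histone genes with starts at most 1000 bp apart, and blocks of cluster 1 were split at gaps over 100 kb. Near-identical copies had more than 50% of the 31-base words of the promoter repeated in the genome. Peaks shared by neighbours were counted once per peak as well as per gene.

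Genes named with values were the 3 of each class with the highest mean percentile, those called in 1 library only, all H1 genes, all genes outside cluster 1, the testis genes, and in each related list the 3 strongest and up to 3 without a call. Further genes were named after their values were seen. Python 3.11.15, NumPy 2.4.6, pandas 2.3.3, SciPy 1.17.1, Numba 0.67.0 and Matplotlib 3.10.9 were used. The calling step was tested on 5 simulated lists of 2000 peaks over 21853 genes, with 0 wrong calls. Alternatives covered the promoter width, the peak list, the strongest peaks, the assignment of shared peaks, repeated sequence, the start annotation and leaving out each library. A marker gene of the list is not reported here.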

Additional observations from a re-analysis of the deposited data

How the results depend on the processing

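Of 214 values recomputed under alternatives, 182 stayed within 1.5 times the count, or within 1 SD of the mean signal of 8.81 (SD 0.377 over both libraries, n = 2), and 32 moved. Keeping the 50% strongest peaks moved most: 21 histone genes were then called, with 0 for H1, 8 for H2A, 2 for H3, 0 for H4, and by cluster 19, 2, 0 and 0, beside 3 neighbours and 5572 other genes, over 15 and 12 distinct peaks with a signal of 10.3. With a shared peak credited to the nearest start only, 9 H2A and 10 H2B genes were left, with a signal of 8.42. With 500 bp either side 1 H1 gene was left. In the less strict lists cluster 3 had 2 called genes, the neighbours 10 and the signal was 8.40. The series-level thresholded list gave 2 genes in cluster 3 and 8 neighbours, and the series-level conservative list 2 and 10. Without peaks of mostly repeated sequence cluster 2 had 6 called genes. Chosen after seeing the data, the less strict lists gave 15 peaks away from starts in each library, 6 stem cell markers and 2 granulocyte and monocyte markers. The causes of these moves were not tested beyond what each alternative leaves out. With either library alone, the histone genes called ranged from 52 to 59, cluster 3 from 1 to 2 and the signal from 8.21 to 9.07. The wider promoter of 2000 bp gave 56 genes. No paired analysis was possible because there is only 1 group. Signal values of different lists may differ in scale, so these moves in signal are not changes in accessibility. Depth is unknown, so whether a missing peak reflects few reads was not tested.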
